A study of Rattus norvegicus with 13 samples.

Results

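The genes described here were 38 genes known as markers of retinal cell types, grouped by the layer of the retina in which the cells lie. The list held 11 rod genes, 9 genes shared by rods and cones, 6 cone genes, 4 bipolar cell genes, 5 genes of other inner retinal neurons, 1 Müller glia gene and 2 genes of the retinal pigment epithelium. They were chosen by symbol, with the measured values in view, because 1 library, spironolactone 3 at day 3, was known to be low in rod genes. The values of that library, and the fits that include it, are therefore given as a description from which nothing is tested. Of the 38 listed genes, 37 were among the 28357 genes in the day 3 files, and 1 gene of the rod and cone group is not analysed here. Otx2, a transcription factor of bipolar cells and pigment epithelium, was listed at 0 in all 6 libraries. Whether its transcript was truly absent cannot be told from these values. The other 36 genes passed the filter on low counts.

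RNA was sequenced from the periphery of the cornea together with the limbus and adjoining sclera of 2-month-old male Lewis rats of wild-type genotype, in which a deficiency of limbal stem cells had been modelled, a state in which vessels grow into the cornea. At day 3 there were 3 libraries from rats given spironolactone, a mineralocorticoid receptor antagonist, at 25 mg/kg/day by subcutaneous injection for 3 days, and 3 from rats given the vehicle of 90% olive oil and 10% DMSO. The question at day 3 was how systemic spironolactone altered transcript levels relative to vehicle. The labels do not say how the deficiency was made or whether each library came from a separate animal, so the spread between libraries may be technical.

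The retina is a layered sheet of neurons at the back of the eye. Rods and cones absorb light with a visual pigment, which activates the G protein transducin. Transducin switches on a cyclic GMP phosphodiesterase, and the drop in cyclic GMP closes cation channels in the outer segment. Bipolar cells carry the signal to amacrine and ganglion cells, Müller glia span the sheet, and the pigment epithelium behind it regenerates the chromophore. These cells are not part of the cornea or limbus, and the tissue name in the labels is cornea.

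The labelled tissue was checked against its own markers. Krt5, a keratin of basal epithelium, ran from 5857 to 7708 TPM (length-scaled transcript abundance, with the same total in every library) with spironolactone and from 3181 to 4867 TPM with vehicle. Krt12, the keratin of differentiated central corneal epithelium, ran from 9.76 to 10.7 TPM with spironolactone and from 7.23 to 10.9 TPM with vehicle. Total estimated counts were 18.2 to 25.3 M per library with spironolactone and 22.1 to 23.5 M with vehicle, and spironolactone 3, with 20.3 M, lay within that range.

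Spironolactone 3 stood apart from the other 5 libraries. Among 14016 genes with a mean of at least 1 TPM, 284 genes, or 2.03%, had a TPM in this library under 25% of the lowest value in the other 5, against 5 to 8 genes in each of the other libraries. Those 284 genes included 28 of the 36 retinal genes, and 70 once the other retinal genes listed further on are counted. The treatment comparisons are therefore also given without it.

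Promoter sequences from RefSeq (assembly GRCr8) are shown for 5 genes, each with a match to a motif of known photoreceptor regulators. Whether these regulators had a part in the values of spironolactone 3 was not tested. Each sequence runs from 250 bases before the gene start to 50 after it. Capitals in the lines for Gngt1, Aipl1, Opn1sw and Rpe65 mark TAATCC or its reverse complement GGATTA, the core recognised by the homeodomain factors Crx and Otx2, and capitals in the line for Sag mark TGCTGA, a core of the recognition element of the rod factor Nrl, whose reverse complement is TCAGCA. The windows lie at chr4:32960695-32960994 on the plus strand for Gngt1, chr10:57163406-57163705 on the minus strand for Aipl1, chr4:58945776-58946075 on the minus strand for Opn1sw, chr9:95916947-95917246 on the plus strand for Sag and chr2:251425118-251425417 on the plus strand for Rpe65.
Gngt1: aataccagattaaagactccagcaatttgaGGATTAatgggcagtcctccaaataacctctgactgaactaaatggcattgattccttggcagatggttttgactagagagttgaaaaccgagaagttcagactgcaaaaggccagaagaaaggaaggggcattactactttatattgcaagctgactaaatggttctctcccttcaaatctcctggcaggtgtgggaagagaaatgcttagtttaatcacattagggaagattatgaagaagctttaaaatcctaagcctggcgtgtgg
Aipl1: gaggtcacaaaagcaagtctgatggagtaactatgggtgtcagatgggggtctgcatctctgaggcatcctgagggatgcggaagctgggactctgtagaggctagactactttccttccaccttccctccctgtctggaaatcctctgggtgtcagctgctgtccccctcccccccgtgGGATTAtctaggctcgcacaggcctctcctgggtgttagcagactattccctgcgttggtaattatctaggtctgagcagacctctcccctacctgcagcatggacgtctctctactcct
Opn1sw: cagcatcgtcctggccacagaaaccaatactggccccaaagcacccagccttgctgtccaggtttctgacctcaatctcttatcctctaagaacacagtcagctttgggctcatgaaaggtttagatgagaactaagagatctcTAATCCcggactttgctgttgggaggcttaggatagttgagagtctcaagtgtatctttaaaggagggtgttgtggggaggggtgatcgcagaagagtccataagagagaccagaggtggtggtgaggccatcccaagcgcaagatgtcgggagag
Sag: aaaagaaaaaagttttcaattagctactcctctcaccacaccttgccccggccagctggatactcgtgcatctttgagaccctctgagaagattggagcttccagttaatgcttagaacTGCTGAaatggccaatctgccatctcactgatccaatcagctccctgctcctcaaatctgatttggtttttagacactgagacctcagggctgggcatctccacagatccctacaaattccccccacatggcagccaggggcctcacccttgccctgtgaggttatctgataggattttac
Rpe65: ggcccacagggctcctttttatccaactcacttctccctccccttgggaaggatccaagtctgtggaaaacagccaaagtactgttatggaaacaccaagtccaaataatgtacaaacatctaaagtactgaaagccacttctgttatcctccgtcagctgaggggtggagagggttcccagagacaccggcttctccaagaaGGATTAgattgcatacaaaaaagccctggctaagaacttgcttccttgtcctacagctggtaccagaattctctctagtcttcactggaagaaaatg

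The capitals begin 220 bases before the gene start in Gngt1, 70 in Aipl1, 106 in Opn1sw, 131 in Sag and 47 in Rpe65. Of the 37 genes in the files, 28 had an entry, and 9 had none, namely Gnat1, Pde6g, Rcvrn, Rp1, Gnat2, Pde6c, Otx2, Cabp5 and Rbpms. TAATCC on either strand was in 7 of 19 photoreceptor promoters (36.8%) and in 2 of 9 promoters of the other genes (22.2%), those of Trpm1 and Rpe65. Of all 33469 promoters of the same length in the table, 7.17% held it. TGCTGA on either strand was in 5 of 19 photoreceptor promoters (26.3%), 2 of 9 of the others (22.2%) and 18.4% of all promoters. A match describes letters in the window and not a bound site, and no match of one motif overlapped a match of the other in these promoters.

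Among the layers of the list, rod genes had the highest summed TPM in every library. The TPM of the 11 rod genes summed to 2131, 2680 and 173.5 in spironolactone 1, 2 and 3, against 3767, 3417 and 3473 in vehicle 1, 2 and 3. Spironolactone 3 held 5.08% of the median of the other 5 libraries, and spironolactone 1 and 2 lay below all 3 vehicle libraries. In bulk tissue, fewer rods and less RNA per rod cannot be told apart. All 11 rod genes had their lowest TPM in spironolactone 3.

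Gnat1, the alpha subunit of rod transducin, had 640, 841 and 37.5 TPM in spironolactone 1, 2 and 3, against 1203, 1071 and 1059 TPM in the vehicle libraries. Gngt1, the gamma subunit of rod transducin, had 618, 762 and 56.6 TPM with spironolactone, against 1086, 1012 and 1044 TPM with vehicle. Both genes were of similar level in the vehicle libraries, and the groups did not overlap. Pde6g, the inhibitory subunit of the rod phosphodiesterase, had 278, 312 and 21.8 TPM with spironolactone, against 500, 412 and 413 TPM with vehicle. Sag, the rod arrestin that stops signalling by the activated pigment, had 223, 302 and 25.2 TPM with spironolactone, against 365, 365 and 386 TPM with vehicle. For these genes too the 3 spironolactone values lay below the 3 vehicle values, with spironolactone 3 far below the other 2.

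The share left in spironolactone 3 was at most 10.0% in TPM for every rod gene, but it differed among them. It was 3.54% of the median of the other 5 libraries for Gnat1, 5.59% for Gngt1, 5.28% for Pde6g and 6.91% for Sag in TPM. The other 7 rod genes ran from 4.16% for Cngb1, a subunit of the rod cyclic GMP-gated channel, to 10.0% for Reep6, an endoplasmic reticulum protein of rods. Pooling the counts of the other 5 libraries, Gnat1 kept 3.93% of its depth-scaled counts (95% exact interval 3.69% to 4.17%), and Reep6 kept 10.6% (9.13% to 12.2%). The intervals of Gnat1 and Reep6 did not overlap, and they cover counting error only. Nr2e3, a nuclear receptor of the rod lineage, was the rod gene whose treatment groups overlapped, with 16.3, 21.7 and 1.82 TPM with spironolactone and 23.7, 21.3 and 22.6 TPM with vehicle.

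Ratios of partner genes were also taken within each library. Pde6a over Pde6b, the catalytic subunits of the rod phosphodiesterase, was 1.22, 1.29 and 1.11 in TPM with spironolactone and 1.26, 1.24 and 1.23 with vehicle. Spironolactone 3 was lowest there, a little outside the range of the other 5. Pde6g over the sum of Pde6a and Pde6b was 1.55 in spironolactone 3, inside the range of 1.38 to 1.71 in the other 5. Gngt1 over Gnat1 was 0.965, 0.907 and 1.51 with spironolactone and 0.903, 0.945 and 0.986 with vehicle, so the ratio in spironolactone 3 lay outside the range of the other 5. So did Cnga1 over Cngb1, the channel subunits, at 2.55 in spironolactone 3 against 1.65 to 2.04 in the other 5.

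**Figure D1:**
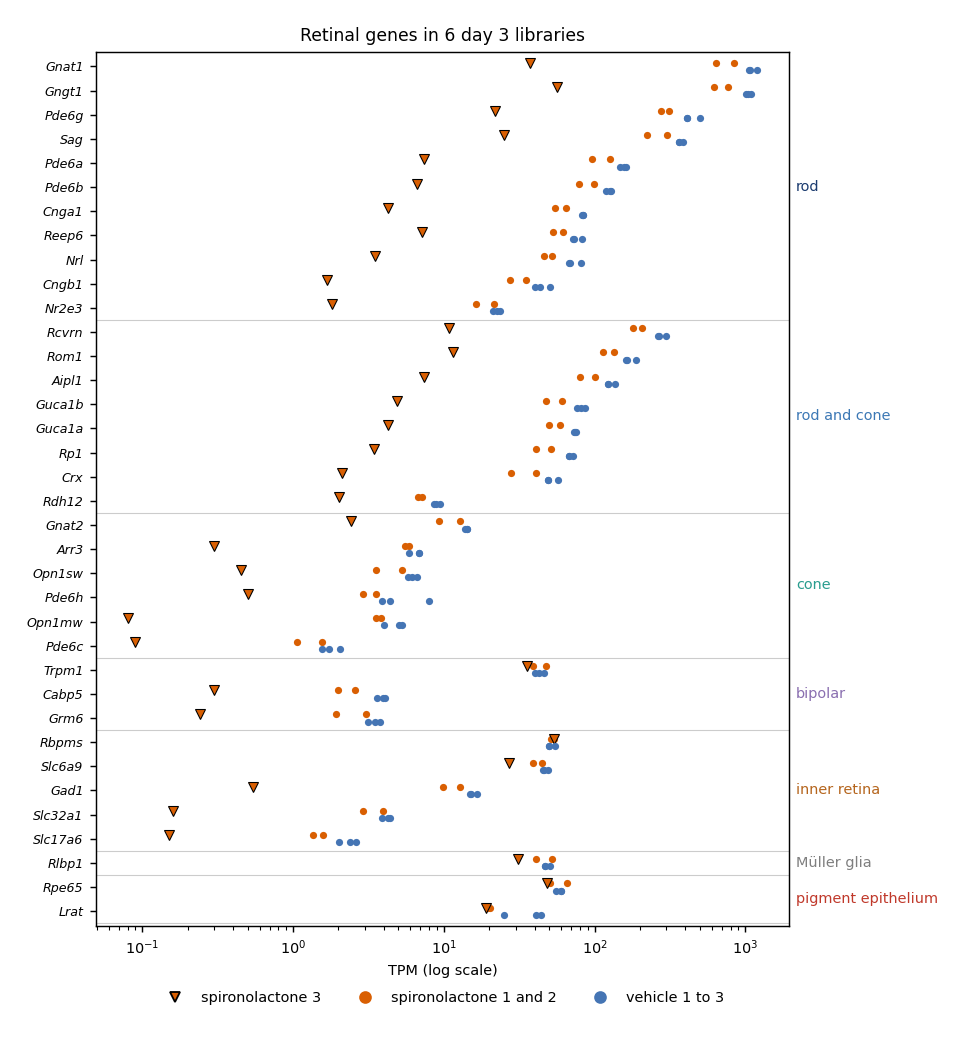
TPM (log scale) of the 36 retinal genes with a non-zero value in each day 3 library, by layer; triangles are spironolactone 3, orange circles spironolactone 1 and 2, and blue circles vehicle 1 to 3. Spironolactone 3 was the lowest of the 6 libraries for 35 of the 36 genes, and Trpm1, Rbpms, Rpe65 and Lrat had it close to other libraries.

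Genes used by both rods and cones had the same order of libraries as rod genes. The TPM of the 8 genes measured summed to 546.8, 661.3 and 46.53 with spironolactone, against 921.9, 827.6 and 833.2 with vehicle. Spironolactone 3 held 5.62% of the median of the other 5 libraries. Rcvrn, the calcium sensor recoverin, had 179, 206 and 10.8 TPM with spironolactone, against 299, 266 and 265 TPM with vehicle. Rom1, a structural protein of outer segment discs, had 115, 135 and 11.5 TPM with spironolactone, against 188, 163 and 162 TPM with vehicle. Neither gene's groups overlapped, and spironolactone 3 was far below both other spironolactone libraries.

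Aipl1, a chaperone of the phosphodiesterase, had 80.1, 101 and 7.44 TPM with spironolactone, against 136, 123 and 123 TPM with vehicle. Guca1b, a guanylate cyclase activator, had 48.0, 60.7 and 4.93 TPM with spironolactone, against 86.4, 77.1 and 81.6 TPM with vehicle. On CPM (counts scaled to library size by TMM), the spironolactone values of all 8 genes in this layer lay below all vehicle values, as did those of 16.1% of all tested genes. Without spironolactone 3 this held for 8 of 8, which was fixed in advance since leaving out a library cannot undo it, and for 19.9% of all genes. Rdh12, a retinol dehydrogenase, kept the largest share in spironolactone 3 among photoreceptor genes, at 23.4% of the median of the other 5 libraries in TPM. By pooled counts that share was 25.2% (95% exact interval 18.1% to 34.4%), against 4.07% in TPM for Rcvrn, the lowest of the layer. Crx, a transcription factor of both photoreceptor types, was at 4.29%, and Rp1, a protein of the photoreceptor axoneme, at 5.13%.

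Cone genes were far less abundant than rod genes. The TPM of the 6 cone genes summed to 26.25, 32.54 and 3.84 with spironolactone, against 38.36, 39.61 and 38.59 with vehicle. Spironolactone 3 held 10.0% of the median of the other 5 libraries, and the cone sum per 100 of the rod sum was 1.23, 1.21 and 2.21 with spironolactone and 1.02, 1.16 and 1.11 with vehicle. The cone share was highest in spironolactone 3, where Gnat2, the alpha subunit of cone transducin, supplied most of the cone sum.

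Gnat2 had 9.27, 12.8 and 2.42 TPM with spironolactone, against 14.3, 14.2 and 13.9 TPM with vehicle. The share of Gnat2 left in spironolactone 3 was 19.0% by pooled counts (95% exact interval 13.8% to 25.5%), against 3.93% for Gnat1. Arr3, cone arrestin, had 5.92, 5.52 and 0.30 TPM with spironolactone, against 6.90, 5.85 and 6.85 TPM with vehicle. Opn1sw, the short-wave cone opsin, had 3.56, 5.29 and 0.45 TPM with spironolactone, against 6.20, 5.80 and 6.63 TPM with vehicle. The groups of Opn1sw did not overlap, and those of Arr3 did through spironolactone 1.

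Pde6h, the inhibitory subunit of the cone phosphodiesterase, had 2.89, 3.57 and 0.50 TPM with spironolactone, against 3.87, 8.01 and 4.43 TPM with vehicle. Some cone values in spironolactone 3 rest on few counts: 1 for the middle-wave opsin Opn1mw, 2 for Pde6h, 3 for the catalytic subunit Pde6c and 4 for Arr3. The share of Opn1mw left there was 1.88% by pooled counts, with a 95% exact interval of 0.0473% to 10.5%, and that of Pde6h was 11.4%, with an interval of 1.37% to 42.5%.

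Bipolar cell genes split by gene in spironolactone 3. Trpm1, a cation channel of ON bipolar cells that melanocytes also make, had 39.0, 47.8 and 35.5 TPM with spironolactone, against 40.3, 42.7 and 46.1 TPM with vehicle. Its groups overlapped, and spironolactone 3 was at 83.2% of the median of the other 5 libraries. Grm6, the glutamate receptor that acts upstream of that channel, had 1.92, 3.03 and 0.24 TPM with spironolactone, against 3.78, 3.48 and 3.15 TPM with vehicle. Cabp5, a calcium-binding protein of bipolar cells, had 1.98, 2.58 and 0.30 TPM with spironolactone, against 4.09, 3.96 and 3.62 TPM with vehicle. Grm6 and Cabp5 were lowest in spironolactone 3, at 7.62% and 8.29% of the median of the other 5 libraries, and their groups did not overlap.

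Genes of the other inner retinal neurons split in the same way. Gad1, which makes the transmitter GABA in amacrine and horizontal cells, had 9.83, 12.9 and 0.54 TPM with spironolactone, against 16.7, 15.2 and 14.9 TPM with vehicle. Slc32a1, the vesicular transporter of GABA and glycine, had 2.90, 3.96 and 0.16 TPM with spironolactone, against 4.24, 4.37 and 3.88 TPM with vehicle. Gad1 was at 3.62% of the median of the other 5 libraries in spironolactone 3, as low as Gnat1, and Slc32a1 was at 4.04%. Slc17a6, a vesicular glutamate transporter of ganglion cells, was at 7.46%.

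Rbpms and Slc6a9 did not share those values. Rbpms, an RNA-binding protein of ganglion cells that many other tissues make, had 53.8, 51.3 and 53.9 TPM with spironolactone, against 49.8, 50.1 and 54.4 TPM with vehicle. It was the 1 gene of 36 for which spironolactone 3 was not the lowest library. Slc6a9, a glycine transporter, had 39.4, 44.7 and 27.1 TPM with spironolactone, against 49.2, 45.8 and 46.3 TPM with vehicle. Its groups did not overlap, but spironolactone 3 kept 59.1% of the median of the other 5 libraries.

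The 1 glial gene of the list and the pigment epithelial genes were much nearer to the other libraries in spironolactone 3. Rlbp1, a retinaldehyde-binding protein of Müller glia that pigment epithelium also makes, had 41.2, 52.4 and 30.9 TPM with spironolactone, against 50.7, 46.7 and 47.2 TPM with vehicle. Rpe65, the isomerase that regenerates the chromophore, had 50.4, 65.4 and 48.4 TPM with spironolactone, against 55.7, 59.8 and 59.8 TPM with vehicle. The groups of both genes overlapped, and spironolactone 3 was lowest by a small margin for Rpe65. By pooled counts Rlbp1 kept 65.6% (95% exact interval 61.3% to 70.2%), Rpe65 84.2% (79.4% to 89.3%) and Trpm1 83.3% (79.7% to 86.9%).

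Per 100 of the rod sum, Rpe65 stood at 2.37, 2.44 and 27.9 in TPM with spironolactone and at 1.48, 1.75 and 1.72 with vehicle. Trpm1 over Rpe65 was 0.774, 0.730 and 0.733 with spironolactone and 0.724, 0.714 and 0.770 with vehicle. That ratio in spironolactone 3 lay inside the range of the other libraries, while the ratio to the rod sum lay far outside it. The melanocyte and melanin list, of which 7 of 7 genes were above 0 in all libraries, summed to 2230, 2843 and 2757 TPM with spironolactone and 2503, 2520 and 2631 TPM with vehicle. Whether these cells contributed to the level of Trpm1 was not tested.

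Lrat, which makes the retinyl esters that Rpe65 uses, had 19.7, 20.2 and 18.9 TPM with spironolactone, against 40.8, 44.3 and 25.0 TPM with vehicle. Here spironolactone 3 lay with the other spironolactone libraries, vehicle 3 lay well below vehicle 1 and 2, and the groups did not overlap. Lrat over Rpe65 was 0.390, 0.309 and 0.391 with spironolactone and 0.734, 0.740 and 0.419 with vehicle.

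**Figure D2:**
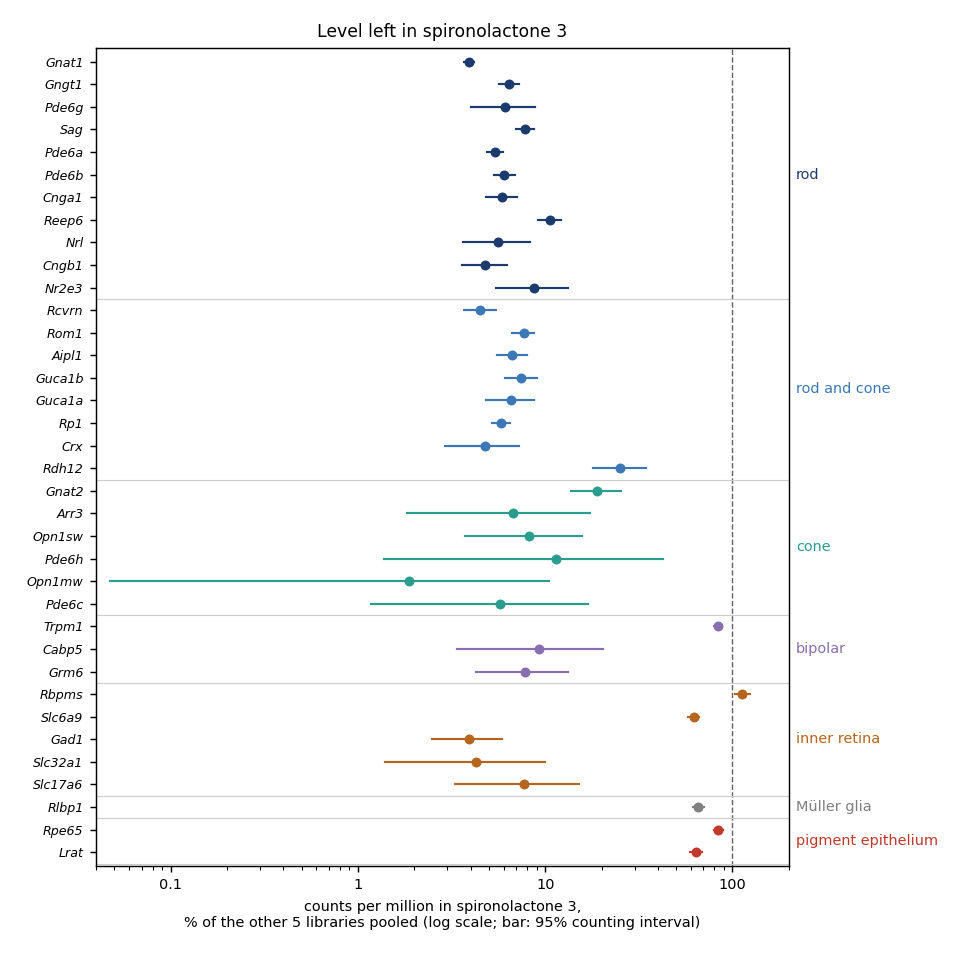
Depth-scaled counts in spironolactone 3 as a percentage of the other 5 libraries pooled (log scale), for 36 retinal genes by layer; bars are 95% exact intervals of the counts. Most photoreceptor genes lie near 5%, Gnat2 and Rdh12 at 19.0% and 25.2%, and Trpm1, Slc6a9, Rbpms, Rlbp1, Rpe65 and Lrat above 60%.

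The 36 genes were also counted against a limit of 25% in spironolactone 3. Values under 25% of the lowest other library were found for 11 of 11 rod, 7 of 8 rod and cone, 5 of 6 cone, 2 of 3 bipolar and 3 of 5 inner retinal genes, and for none of the 3 glial and pigment epithelial genes. The 25% limit was chosen after the values were seen. Just inside it lay Pde6h at 17.3%, and just outside it lay Gnat2 at 26.1% and Rdh12 at 30.1%. The next gene above was Slc6a9, at 68.8% of the lowest other library. The gap in the values thus lay above the limit, with Gnat2 and Rdh12 on its low side.

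**Figure D3:**
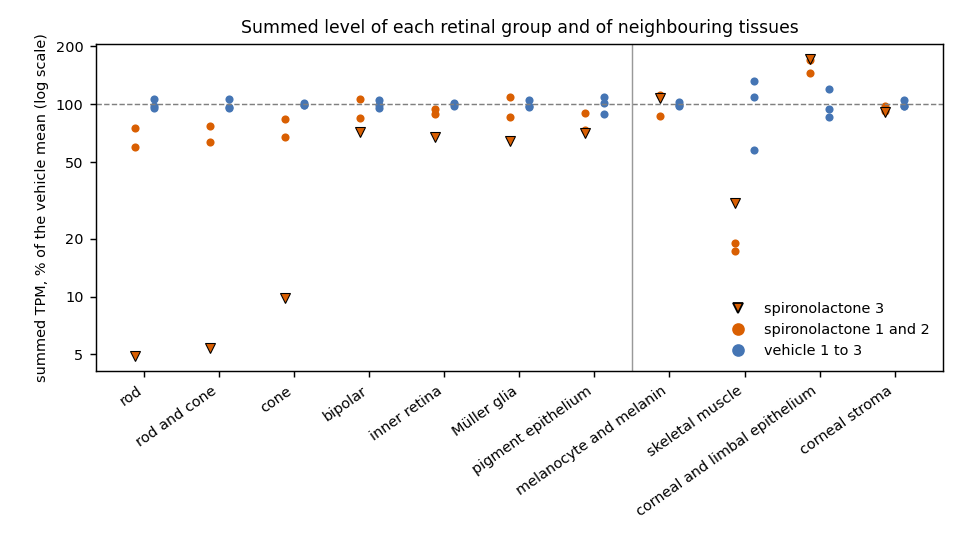
Summed TPM of each retinal group and of 4 other tissue lists in each library, as a percentage of the vehicle mean (log scale); triangles are spironolactone 3, orange circles spironolactone 1 and 2, and blue circles vehicle 1 to 3. In spironolactone 3 the photoreceptor sums lie at or under about 10% of vehicle, and the other retinal sums lie above 60%. Trpm1 predominates in the bipolar sum, and Rbpms and Slc6a9 in the inner retinal sum. The other genes of these sums, Grm6, Cabp5, Gad1, Slc17a6 and Slc32a1, had 3.62% to 8.29% of the median of the other 5 libraries.

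The retinal genes also varied among the 5 remaining libraries, and that variation was described by the coefficient of variation (CV) of TPM before and after division by the rod sum of the same library. For the 8 rod and cone genes the median CV was 19.9% before and 4.69% after division, and it was smaller after division for 8 of 8. Rp1 had a CV of 22.1% before and 1.73% after, and Guca1b 22.6% before and 1.80% after. For cone genes the median was 19.6% before and 11.3% after, smaller for 5 of 6. The rod sum in these libraries ran from 2131 to 3767 TPM. After division the CV was 34.6% for Pde6h, 20.1% for Arr3, 12.8% for Opn1mw and 10.3% for Rdh12.

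Genes of the other layers followed the rods in some cases and not in others. Gad1 had a CV of 19.1% before division by the rod sum and 4.32% after, Grm6 23.0% and 9.51%, and Cabp5 28.4% and 8.96%. For Slc17a6 the CV was 26.3% before and 11.5% after, and for Slc32a1 14.9% and 12.2%. For Trpm1 the CV was 8.59% before and 23.3% after, for Rlbp1 9.06% and 20.2%, for Rpe65 9.55% and 21.9%, and for Rbpms 4.07% and 27.3%. These 4 genes kept more than 60% of their level in spironolactone 3. This is no independent check, since the genes were chosen with all these libraries known and the rod sum itself was lower with spironolactone. Slc6a9 had a CV of 8.02% before and 16.3% after, and by pooled counts it kept 62.0%. Lrat also kept more than 60%, but its CV was 39.0% before division and 25.0% after. Arr3, which was low in spironolactone 3, had a CV of 10.1% before and 20.1% after. TPM of 1 library share a common total, and all 5 values per gene come from both treatments, so the CV is a description with no test.

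**Figure D4:**
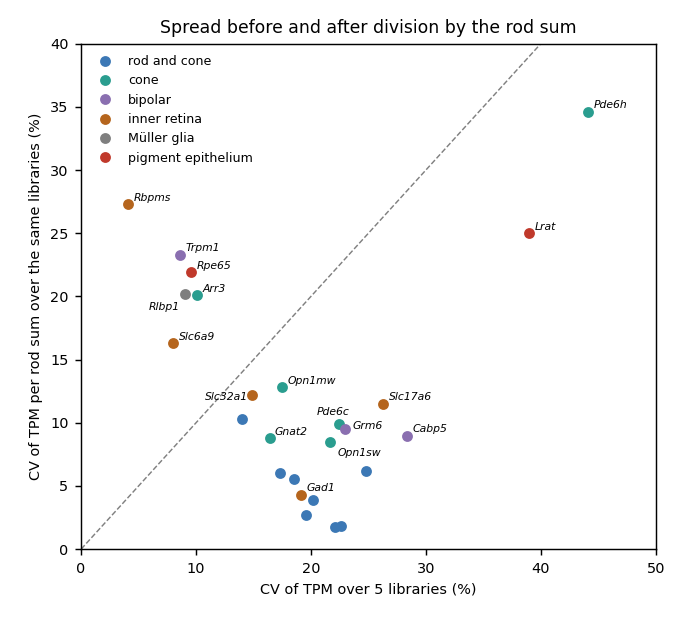
CV of TPM over the 5 day 3 libraries other than spironolactone 3 (x axis, %) against the CV of TPM divided by the rod sum of the same library (y axis, %), 1 point per gene outside the rod group; the dashed line marks equal values. Rod and cone genes and Gad1 lie below the line, and Rbpms, Trpm1, Rpe65, Rlbp1, Arr3 and Slc6a9 lie above it.

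Between treatments, most of the listed retinal genes had a negative log2 fold change, and no gene passed edgeR's quasi-likelihood test. With all 6 libraries, 35 of 36 genes had a negative log2 fold change of spironolactone over vehicle, with a median of -0.94, against -0.01 over all 14762 genes tested. EdgeR called 0 of the 36 at an adjusted p of 0.05, and 0.0% of all genes, while 3332 genes had an unadjusted p under 0.05. Since the genes were chosen with these libraries known, nothing is read from these counts. Gnat1 had a log2 fold change of -1.08 (SE 0.98), Rcvrn -1.01 (SE 0.90), Gnat2 -0.73 (SE 0.52), Gad1 -0.95 (SE 0.88) and Rpe65 -0.03 (SE 0.11).

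Without spironolactone 3 the direction held for most genes and the size shrank. In the remaining 2 spironolactone and 3 vehicle libraries, 32 of 36 genes had a negative log2 fold change, and the median was -0.42, against -0.01 over all genes. EdgeR's quasi-likelihood test with Benjamini-Hochberg adjustment called 0 of the 36 and 0.0134% of all 14916 genes, and the adjusted p of the 36 genes ran from 0.0842 to 0.961. By layer the median log2 fold change was -0.45 for rod genes, -0.45 for rod and cone genes, -0.34 for cone genes, -0.42 for bipolar genes and -0.21 for inner retinal genes. Gnat1 was at -0.53 (SE 0.12), Rcvrn at -0.47 (SE 0.08), Gnat2 at -0.30 (SE 0.14) and Gad1 at -0.40 (SE 0.12). Trpm1 was at 0.06 (SE 0.10), Rpe65 at 0.04 (SE 0.11), Rlbp1 at 0.01 (SE 0.10) and Rbpms at 0.12 (SE 0.08).

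The layer sums of the same libraries give the size in levels. The rod sum averaged 2405 TPM in spironolactone 1 and 2 and 3552 ± 188 TPM in vehicle (SD, n = 3), so the spironolactone libraries held 67.7% of the vehicle mean. The share was 70.2% for rod and cone genes and 75.7% for cone genes. It was 95.6% for bipolar genes, a sum in which Trpm1 predominates, and 97.1% for Rlbp1. For inner retinal genes it was 91.9%, a sum in which Rbpms and Slc6a9 predominate. For the pigment epithelium genes, Rpe65 and Lrat, it was 81.8%, with mean levels of 57.9 TPM of Rpe65 in spironolactone 1 and 2 against 58.4 TPM in vehicle, and 19.9 TPM of Lrat in spironolactone 1 and 2 against 36.7 TPM in vehicle. Grm6 averaged 2.47 TPM in spironolactone 1 and 2 against 3.47 TPM in vehicle, and Cabp5 2.28 against 3.89 TPM. In the same libraries Gad1 averaged 11.3 against 15.6 TPM, Slc17a6 1.47 against 2.33 TPM and Slc32a1 3.43 against 4.16 TPM. Trpm1 averaged 43.4 against 43.0 TPM, Rbpms 52.5 against 51.4 TPM and Slc6a9 42.0 against 47.1 TPM. On TPM the median of all genes was lower with spironolactone by 0.067 on the log2 scale, and on CPM by 0.007.

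On CPM, the spironolactone values lay below all vehicle values for 28 of the 36 genes, where 16.1% of all tested genes did so. They lay above all vehicle values for 1 gene, Rbpms, where 16.0% of all genes did so. Without spironolactone 3 the counts among the 36 genes were 28 lower and 1 higher, where 19.9% and 20.1% of all genes did so. Leaving out a library cannot make separated groups overlap, so these counts could not fall and are no check on that library. The 7 genes whose groups overlapped were Nr2e3, Arr3, Pde6c, Trpm1, Slc32a1, Rlbp1 and Rpe65. Genes of 1 cell type vary together from library to library, so the 28 genes are not 28 separate observations.

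**Figure D5:**
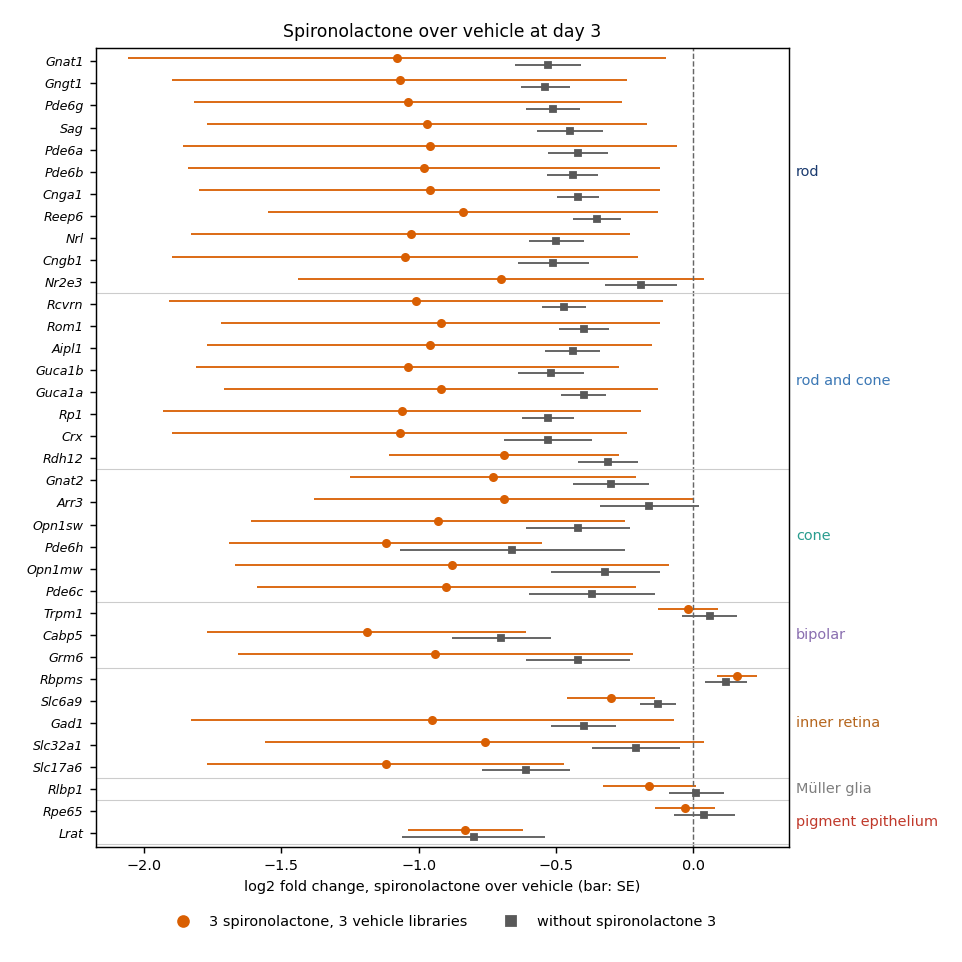
Log2 fold change of spironolactone over vehicle from edgeR (bars: SE) for 36 retinal genes by layer, with all 6 libraries (circles) and without spironolactone 3 (squares). With all libraries most photoreceptor genes lie near -1 with a wide SE, and without spironolactone 3 they lie between -0.66 and -0.16.

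Calls of a few genes depended on the tool or the libraries. The log2 fold change of Lrat was -0.83 (SE 0.21), with an adjusted p of 0.0984 by edgeR's quasi-likelihood test. DESeq2 called it lower (adjusted p = 0.00101), among the 3.34% of genes that DESeq2 called lower, and it was the only one of the 36 retinal genes so called. Without spironolactone 3 its log2 fold change was -0.80, and edgeR gave an adjusted p of 0.19. Without vehicle 3 its log2 fold change was -1.03, and edgeR gave an adjusted p of 0.0112, where 1.55% of genes were called lower. Vehicle 3 is the vehicle library with the lowest TPM of Lrat. Without spironolactone 3 and vehicle 3, an alternative chosen after seeing the data, edgeR called 5 of the 36 genes lower at an adjusted p of 0.05, where 2.61% of all genes were called lower. These were Lrat, Cnga1, Gngt1, Rcvrn and Rp1.

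Summed levels of markers of other tissues differed between the treatments for some lists, although edgeR called none of their genes at an adjusted p of 0.05. The 12 skeletal muscle genes in the files, of 14 listed and all above 0 in every library, summed to 215.3, 196.2 and 347.3 TPM with spironolactone, against 660.2, 1503 and 1249 TPM with vehicle. The 9 corneal and limbal epithelial genes in the files, of 10 listed, summed to 14080, 16500 and 16700 TPM with spironolactone, against 9120, 8269 and 11580 TPM with vehicle. The 16 lens genes in the files, of 17 listed, 4 of them at 0 in some library, summed to 13.5 to 45.2 TPM with spironolactone and to 38.0 to 1040 TPM with vehicle, where vehicle 3 was the highest. The muscle and epithelial sums did not overlap between treatments, and the lens sums did. The corneal stroma list, 6 of 6 genes above 0 in all libraries, also overlapped and summed to 4352 to 4686 TPM with spironolactone and 4636 to 4986 TPM with vehicle. The part of the dissected tissue mix in the retinal values was not tested.

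Other retinal genes, outside the 38, were listed from general knowledge of each cell type, with earlier results of these data known. They are measured in the same libraries and mark the same cell types as the 38, so their counts are no independent check. Over all genes tested the median log2 fold change was -0.01, both with all libraries and without spironolactone 3. Of 37 other photoreceptor genes tested, 36 had a negative log2 fold change with all libraries (median -0.93) and 36 without spironolactone 3 (median -0.43), edgeR called none at an adjusted p of 0.05, and 25 of the 39 in the files were under 25% of the lowest other library in spironolactone 3. Of all genes with a mean of at least 1 TPM, 2.03% were under that limit. The counts for this list and the next ones have no such minimum, so they can take in genes near 0 TPM. Pdc, which encodes phosducin, a partner of the transducin beta and gamma subunits, was at 4.91% of the median of the other 5 libraries. Gnb1, a transducin beta subunit that many cells make, was at 51.1%, and Prom1, a membrane protein that epithelial cells also make, at 98.6%.

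Of 12 other bipolar genes tested, 11 were negative with all libraries (median -0.87) and 10 without spironolactone 3 (median -0.35), and 9 of the 13 in the files were under 25% of the lowest other library in spironolactone 3. Their most abundant members were Tacr3, a tachykinin receptor, at 122% of the median of the other 5 libraries, the kinase Prkca at 62.2% and the G protein subunit Gng13 at 16.4%. Of 21 other inner neuron genes tested, 19 were negative with all libraries (median -0.83) and 19 without spironolactone 3 (median -0.33), and 17 of the 29 in the files were under that limit. Some inner neuron genes under the limit were near 0 TPM in every library, such as Lhx1, with 0.33 to 0.66 TPM with vehicle and 0.0 TPM in spironolactone 3. The synaptic protein Snap25 was at 3.60% of the median of the other 5 libraries, the surface protein Thy1 at 83.8% and the transcription factor Tfap2b at 103%.

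Müller glia and pigment epithelium lists had smaller differences. Of 10 other Müller glia genes tested, 8 were negative with all libraries (median -0.54) and 8 without spironolactone 3 (median -0.16), and 2 of the 11 in the files were under 25% of the lowest other library in spironolactone 3. The filament protein Vim was at 95.9% of the median of the other 5 libraries, glutamine synthetase Glul at 63.0% and Dkk3 at 40.4%. Over the 11 Müller glia genes this share ran from 0.0% to 95.9%, with a median of 40.4%, and Kcnj10 was at 7.0%. Of 11 other pigment epithelium genes tested, 9 were negative with all libraries (median -0.18) and 7 without spironolactone 3 (median -0.07), and none was under that limit. Transthyretin Ttr was at 66.9% of the median of the other 5 libraries and the retinol dehydrogenase Rdh10 at 76.1%. Over the 11 pigment epithelium genes this share ran from 51.8% to 127%, with a median of 86.2%. EdgeR called none of these genes at an adjusted p of 0.05, with or without spironolactone 3.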

How the data were processed

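The authors' expected counts and TPM values (abundances scaled by gene length) at day 3 stand in the layout of RSEM gene results, per the file headers. The submitters' processing notes name STAR 2.5.3a, RSEM 1.2.28 and the rat build Rnor_6.0 among their tools and builds. The use of strand in counting is not stated, so reads of genes that overlap on opposite strands may be shared. 1 row that names no gene, with 0.12% to 0.181% of counts, was left out.

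The deposited TPM values were used for levels. The deposited expected counts were rounded, filtered with edgeR's expression filter (minimum count 10), scaled by TMM and tested with edgeR 4.0.16 (quasi-likelihood, robust, Benjamini-Hochberg at 0.05 over all genes), with DESeq2 1.42.0 as an alternative. Other alternatives were RLE and total count scaling, no filter, replicate number as a block and each library left out. Exact binomial intervals at 95% came from scipy 1.17.1. The tests were checked on simulated counts. No pair of libraries within a group agreed within sampling noise. The 7 libraries of day 7 are not analysed here, because no source used here pairs their gene IDs with names.

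The genes and lists were chosen with earlier results of these data known. In each layer the text gives all values for up to 4 genes with the highest mean TPM and for genes not lowest in spironolactone 3, and for the other lists the 3 most abundant genes, of which 1 is not reported here; other genes are named by their place in a range or count.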

Additional observations from a re-analysis of the deposited data

How the results depend on the processing

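At an adjusted p of 0.05, edgeR made 0 calls among 14762 genes with all 6 libraries, and 0 with RLE or total count scaling. With no filter on low counts edgeR made 148 calls among 18807 genes. DESeq2 made 1344 calls, and gave no adjusted p for 864 of its 14762 genes. With all 6 libraries 3332 genes had an unadjusted p under 0.05 by edgeR and 3022 by DESeq2. Leaving out each library in turn gave 0 to 781 calls, with 2 without spironolactone replicate 3, 40 without vehicle replicate 1 and 781 without vehicle replicate 3. Leaving out both replicates 3, chosen after seeing the data, gave 1040 calls, 5 of them retinal genes. The cause of these differences was not tested. The median log2 fold change of the 36 retinal genes was -0.94 with all libraries, -0.94 with RLE, -1.0 with total counts, -0.95 with no filter and -0.96 with DESeq2, and it ran from -1.48 to -0.42 when each library was left out.

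Replicate numbers do not pair the libraries by the labels, and the deviations of same-numbered libraries correlated at 0.114, -0.093 and 0.0641. With replicate number as a block, edgeR called 0 genes, and the median of the retinal genes was -1.35.

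The rod sum of spironolactone 3 was 5.08% of the median of the other 5 libraries in TPM, 4.93% in CPM, 5.0% against vehicle and 7.21% against the other 2 spironolactone libraries. 3 genes near 0 changed sign. The log2 fold change of Trpm1 was -0.02 with all libraries, 0.0077 without spironolactone replicate 1, 0.06 without spironolactone replicate 3, 0.05 without vehicle replicate 3 and 0.13 without both replicates 3. That of Rpe65 was -0.03, and 0.02, 0.04, 0.0065 and 0.07 in the same order. That of Rlbp1 was -0.16, and 0.01 both without spironolactone replicate 3 and without both replicates 3. Without spironolactone replicate 2 the values were lowest, at -0.14 for Trpm1, -0.17 for Rpe65 and -0.35 for Rlbp1. Depth limits the cone genes most, with 1 to 4 counts for Opn1mw, Pde6h, Pde6c and Arr3 in spironolactone 3. The alternatives planned for day 7 were not run, since its genes could not be named.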
